A study of Mus musculus with 9 samples.

Results

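The genes described here carry the names of splicing factors and hnRNPs: every listed gene whose symbol starts with Hnrnp, Hnrp, Srsf, Sfrs, Snrp or Prpf, or with Sf3 followed by a or b. The members were found by name alone, and they numbered 64 of the 7676 genes listed once in the inbred wild type lens and 1 of the 190 genes listed in the other lenses. That 1 gene was Hnrnpa1. The inbred tables begin at a mean of 2 RPKM (reads per kilobase of exon, scaled to library depth), so genes of these names below that level are not among the 64, and all 64 pass the limit of 1 RPKM used in the tests. RNA was sequenced from mouse lenses at 15.5 days post conception, with 30 lenses pooled in each library and 3 libraries in each group. The conditional knockout (cKO) lenses were of mixed strain, Sip1 flox/flox, and carried the MLR10Cre transgene, which drives Cre recombinase in lens cells. Zeb2 encodes Sip1, which represses and activates genes through zinc fingers. The mixed wild type lenses were also of mixed strain and Sip1 flox/flox but had no Cre. The inbred wild type lenses were C57Bl/6<har>, for which the labels give no floxed allele.

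Splicing removes introns from new transcripts. Small nuclear ribonucleoproteins (snRNPs) are mostly built on a uridine-rich RNA held by a ring of Sm proteins. They mark the intron ends and the branch point and then join into the spliceosome. SR proteins, named for their stretches of alternating serine and arginine, mostly bind exons and favour their inclusion. Heterogeneous nuclear ribonucleoproteins (hnRNPs) coat new transcripts and often oppose SR proteins at the same exons. Lens fibre cells make very large amounts of a small set of crystallin transcripts, most of which are spliced, and lose their nuclei late in maturation.

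Many hnRNP and Sm genes have processed pseudogenes, which are copies of their mRNA in the genome, and this bears on how reads can be assigned to them. Coding bases 31 to 120 of Hnrnpa1 are shown beside 3 of the processed pseudogenes that share its coding sequence, from GENCODE M21 transcripts (GRCm38, chromosome 15 plus strand for Hnrnpa1, chr9:123689233-123690192 minus strand for Gm10052, chrX:142297565-142298530 plus strand for Gm5643 and chr15:22713868-22714830 minus strand for Hnrnpa1l2-ps2). Capitals mark bases that differ from the gene.
Hnrnpa1: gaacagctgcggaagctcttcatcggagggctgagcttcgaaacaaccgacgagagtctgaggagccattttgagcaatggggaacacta
Gm10052: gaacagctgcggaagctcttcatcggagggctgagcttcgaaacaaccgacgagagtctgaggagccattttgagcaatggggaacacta
Gm5643: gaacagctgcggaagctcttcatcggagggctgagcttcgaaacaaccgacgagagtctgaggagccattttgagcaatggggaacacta
Hnrnpa1l2-ps2: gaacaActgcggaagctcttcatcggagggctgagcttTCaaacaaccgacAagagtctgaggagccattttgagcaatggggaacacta
In this stretch Gm10052 and Gm5643 had 0 differences from Hnrnpa1 over 90 bases, and Hnrnpa1l2-ps2 had 4. The Sm gene Snrpg (chromosome 6, plus strand) and its copies Gm8186 (chr17:26098991-26099221, minus strand) and AC134591.2 (chr19:57584761-57584956, plus strand) are shown over the same coding bases.
Snrpg: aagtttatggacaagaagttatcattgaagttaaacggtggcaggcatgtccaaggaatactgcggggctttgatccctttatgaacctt
Gm8186: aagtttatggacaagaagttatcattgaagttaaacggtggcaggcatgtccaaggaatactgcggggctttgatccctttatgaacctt
AC134591.2: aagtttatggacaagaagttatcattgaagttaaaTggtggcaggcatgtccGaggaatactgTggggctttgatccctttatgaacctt
Gm8186 held 100% of the 31-base words of the Snrpg coding sequence, and AC134591.2 differed from Snrpg at 3 of the 90 bases shown.

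The steps between RPKM values gave depths, in M reads, of 25.9 to 27.4 (cKO), 38.7 to 44.1 (mixed wild type, the deepest) and 14.1 to 16.7 (inbred, the shallowest). All 8 lens fibre markers and all 4 lens epithelial markers were listed in the inbred libraries, with 4 of 6 erythroid markers at a summed 922 to 947 RPKM. None of 4 retinal, 4 leukocyte and 4 neuronal markers was listed there. In the tables of the other groups the markers were Hba-a2, Hba-x and the neuronal gene Elavl4, so these lenses could not be checked against lens markers, nor the cKO labels against Zeb2. The part of red cells in the levels below was not tested.

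In the inbred lens the splicing genes stood well above the middle of the listed genes. The median member was at 29.1, 26.6 and 28.9 RPKM in replicates 1, 2 and 3 (28.2 ± 1.38, SD, n = 3), while the median listed gene was at 7.50, 7.51 and 7.89 RPKM. Of the 64, 56 lay above the list median of 7.65 RPKM, 5 had a mean of at least 100 RPKM (7.81%, against 4.01% of listed genes) and 12 were under 10 RPKM (18.8%, against 59.3%). Of all reads on listed genes they took 0.927% ± 0.026 (SD, n = 3), and 4 genes, Hnrnpa1, Hnrnpa2b1, Hnrnpk and Snrpd2, made up 30.2% of their summed RPKM. Among the families most like them, the median gene was at 35.0 RPKM for 59 translation initiation and elongation factors, 29.4 RPKM for 45 proteasome genes and 214 RPKM for 87 cytoplasmic ribosomal protein genes. Single members rested on 219 to 14265 reads per library, and 37 of the 64 had at least 1000 reads in every library.

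**Figure D1:**
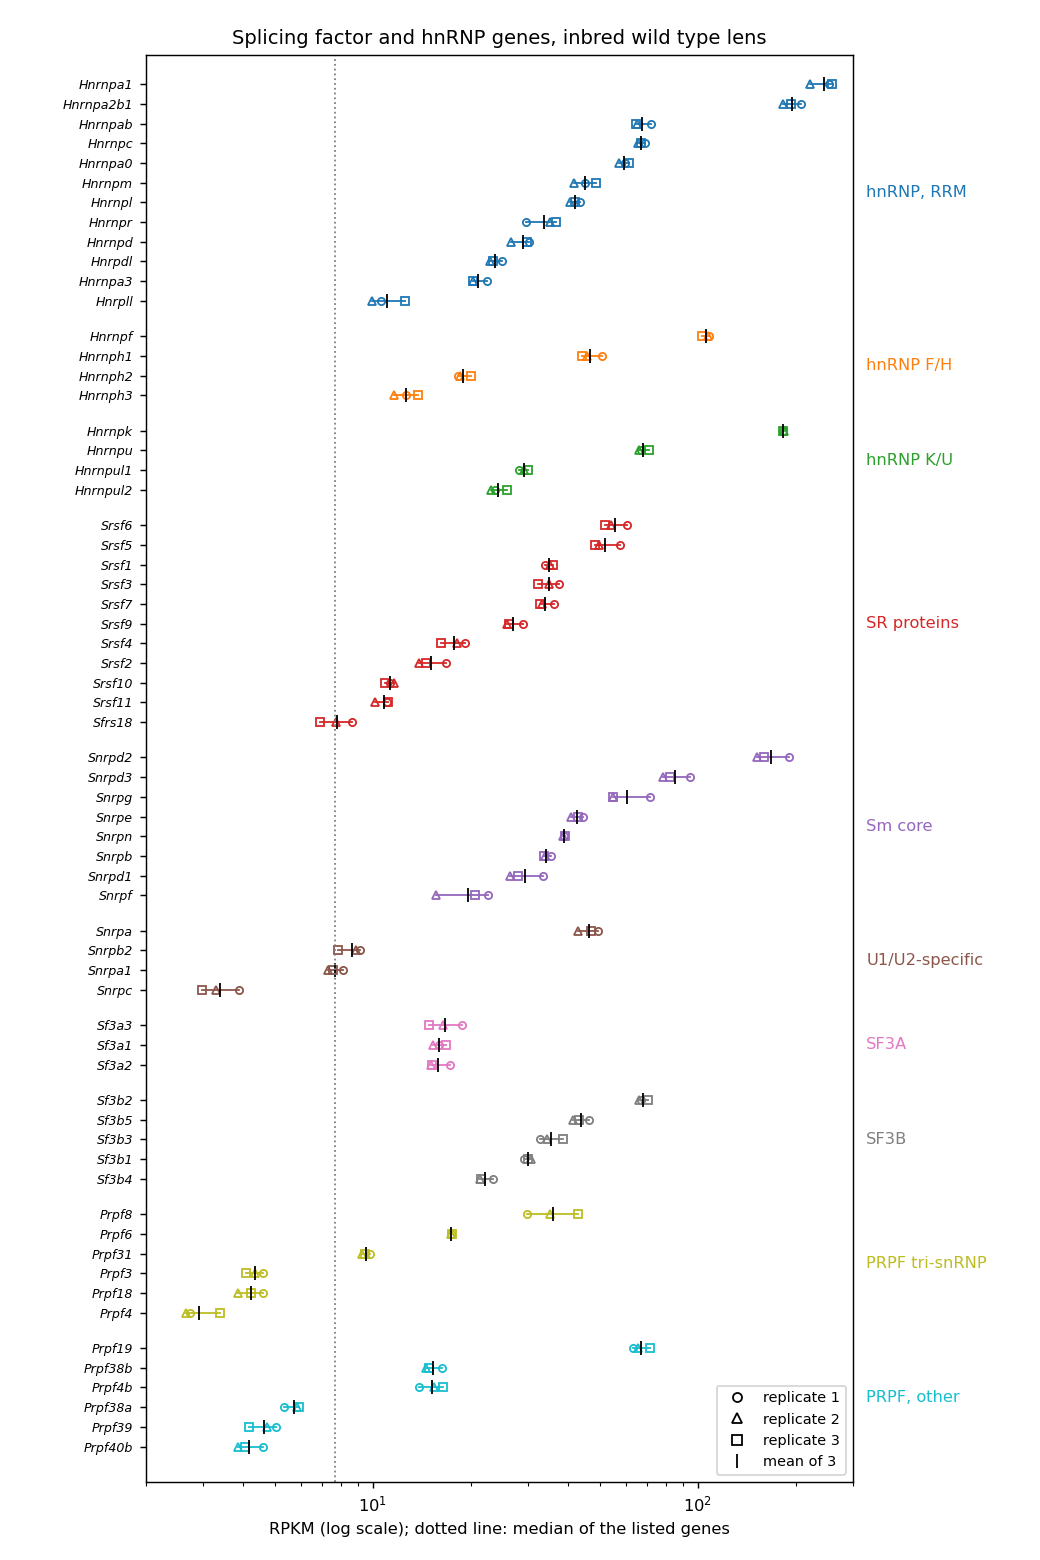
RPKM of the genes in the 3 inbred wild type libraries (all but 1 of the 64), on a log axis, grouped by role; symbols are libraries, the bar is the mean and the dotted line is the median of all listed genes at 7.65 RPKM. Hnrnpa1 is the highest at 244 RPKM and the tri-snRNP gene Prpf4 the lowest at 2.93 RPKM.

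The hnRNP genes whose proteins bind RNA through RNA recognition motifs numbered 12 and had a median of 43.5 RPKM. Hnrnpa1, which silences exons and antagonises SR proteins, was at 253, 221 and 259 RPKM (mean 244 ± 20.4, SD, n = 3). Hnrnpa2b1, its relative with roles in mRNA transport, was at 207, 183 and 194 RPKM. In RPKM these 2 A/B genes stood apart from the next, with the highest library of Hnrnpa2b1 below the lowest of Hnrnpa1. The next gene of the class, Hnrnpab, was no higher than 71.9 RPKM in any library. In reads the order of the pair was reversed, with 4052 to 4747 per library for Hnrnpa1 and 11324 to 14265 for Hnrnpa2b1. Their exon lengths were 1126 and 4125 bases, and their GENCODE M21 transcripts with the longest coding sequence had 1918 and 1728 bases. The first place of Hnrnpa1 thus depends on the lengths used. Hnrnpab was at 67.2 ± 4.05 RPKM and Hnrnpc, whose protein binds uridine tracts near splice sites, at 67.0 ± 1.63 RPKM, a difference within their spread. The lowest of the class were Hnrnpa3 at 21.0 ± 1.21 RPKM and Hnrpll at 11.1 ± 1.37 RPKM. Hnrpll is known as a regulator of Ptprc (CD45) splicing in mouse T cells, and Ptprc was not among the listed genes.

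The hnRNPs of the F/H group bind runs of guanine. Hnrnpf led them at 109, 108 and 103 RPKM, followed by Hnrnph1 at 46.7 ± 3.48 RPKM, Hnrnph2 at 19.0 ± 0.927 RPKM and Hnrnph3 at 12.7 ± 1.06 RPKM. The 4 genes did not overlap in any library. Hnrnpk, which binds cytosine-rich RNA through KH domains, was at 183, 184 and 183 RPKM. Hnrnpu, also known as scaffold attachment factor A, was at 67.8 ± 2.61 RPKM, above its relatives Hnrnpul1 at 29.1 ± 0.859 RPKM and Hnrnpul2 at 24.3 ± 1.45 RPKM.

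The 11 genes of the SR class had a median of 27.0 RPKM, from 55.5 RPKM for Srsf6 to 7.76 RPKM for Sfrs18. Srsf6 was at 60.4, 54.1 and 51.9 RPKM and Srsf5 at 57.4, 49.6 and 48.2 RPKM. Their ranges overlapped across libraries, but Srsf6 was the higher within each library. Srsf1, the founding SR protein, at 34.9 ± 1.01 RPKM, and Srsf3, the smallest of the family, at 34.8 ± 2.52 RPKM, did not differ beyond their spread. Srsf2, also called SC35 and used as a marker of nuclear speckles, was at 15.1 ± 1.54 RPKM. The lowest were Srsf11 at 10.8 ± 0.546 RPKM and Sfrs18, now named Pnisr, at 7.76 ± 0.879 RPKM.

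The Sm core genes encode proteins of the ring that assembles on the snRNAs. Their RPKM levels spanned 19.7 to 167, with a median of 40.7 RPKM. Snrpd2 was at 191, 152 and 160 RPKM and Snrpd3 at 94.4, 78.1 and 82.1 RPKM. Snrpg at 60.5 ± 9.54 RPKM and Snrpe at 42.6 ± 1.91 RPKM came next, and the lowest were Snrpd1 at 29.3 ± 3.63 RPKM and Snrpf at 19.7 ± 3.65 RPKM. Snrpe had 828 to 1017 reads per library and Snrpd3 701 to 951, over exon lengths of 1372 and 604 bases. Their GENCODE M21 transcripts with the longest coding sequence had 503 and 3036 bases, so the order of these genes depends on the lengths used. Snrpn, the imprinted relative of Snrpb best known from the brain, was at 38.9, 38.6 and 39.1 RPKM, and Snrpb was at 35.2, 34.0 and 33.5 RPKM. The 3 Snrpn libraries lay above the 3 Snrpb libraries. Of the proteins particular to U1 or U2 snRNP, Snrpa, of U1, was at 46.4 ± 3.28 RPKM, while Snrpb2 of U2 at 8.62 ± 0.728 RPKM, Snrpa1 of U2 at 7.66 ± 0.422 RPKM and Snrpc of U1 at 3.38 ± 0.455 RPKM were far lower. The exon lengths of these 4 genes, in the same order, were 1760, 2857, 3082 and 6217 bases. Their GENCODE M21 transcripts with the longest coding sequence had 1365, 2061, 1248 and 882 bases. The order of genes by RPKM, here and in the other classes, depends on the exon lengths used.

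SF3A and SF3B are the U2 snRNP complexes that hold the branch point. The 3 SF3A genes lay close together, Sf3a3 at 16.7 ± 1.98 RPKM, Sf3a1 at 16.0 ± 0.738 RPKM and Sf3a2 at 15.9 ± 1.24 RPKM, and did not differ beyond their spread. The 5 SF3B genes ranged more widely. Sf3b2 was at 67.6 ± 2.15 RPKM, Sf3b5 at 43.6 ± 2.50 RPKM, Sf3b3 at 35.3 ± 2.96 RPKM, Sf3b1, the subunit that contacts the branch helix, at 30.0 ± 0.718 RPKM, and Sf3b4 at 22.1 ± 1.13 RPKM.

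The PRPF genes, named after yeast pre-mRNA processing mutants, were mostly low, with a median of 6.93 RPKM for the 6 of the tri-snRNP. Prpf8, which forms the centre of the catalytic spliceosome, was at 29.9, 35.1 and 42.7 RPKM. Prpf6 was at 17.4, 17.4 and 17.5 RPKM and Prpf31 at 9.52 ± 0.299 RPKM. Prpf3 at 4.34 ± 0.273 RPKM, the late-acting Prpf18 at 4.23 ± 0.374 RPKM and Prpf4 at 2.93 ± 0.402 RPKM closed the class. Prpf19, a ubiquitin ligase of the activated spliceosome, stood out among the rest at 63.1, 65.4 and 71.5 RPKM. Below it were, among others, Prpf38b at 15.3 ± 0.949 RPKM, the kinase gene Prpf4b at 15.3 ± 1.28 RPKM, Prpf39 at 4.64 ± 0.440 RPKM and Prpf40b at 4.17 ± 0.392 RPKM.

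A list of 110 symbols of other splicing genes, drawn up by function, had 94 in the inbred tables, with a median of 13.3 RPKM. The highest were U2af1 at 108 ± 6.23 RPKM and U2af2 at 95.8 ± 6.24 RPKM, the 2 subunits of the factor that reads the end of the intron, with the U1 protein gene Snrnp70 between them at 98.9 ± 8.87 RPKM. Rbm24, an RNA-binding protein gene with a known role in lens development, was at 81.6, 84.9 and 89.2 RPKM, above the highest SR gene in each library. Puf60 at 81.8 ± 2.92 RPKM and Celf1, a CUG-binding regulator also studied in the lens, at 80.4 ± 10.4 RPKM completed the 6 highest. The epithelial regulators Esrp1 and Esrp2 and the neuronal Rbfox3, Nova2, Elavl3 and Srrm4 were not in the inbred tables, which begin at a mean of 2 RPKM. The neuronal Nova1 was listed, close to that limit at 2.20 ± 0.278 RPKM, and so was Ptbp2 at 11.1 ± 0.561 RPKM. Of the 110, Elavl4, an RNA-binding protein gene of neurons, was the only one with values in the other lenses. It averaged 0.489 ± 0.161 RPKM in cKO and 2.93 ± 0.245 RPKM in mixed wild type (SD, n = 3 each; log2 fold change -1.81, limma adjusted p = 7.90e-08, lower in 3 of 3 libraries). Of the 190 genes tested 99.5% were called and 100% had separate libraries, all being listed with at least a 2.50-fold difference in normalized means between these groups, so this call is not independent evidence.

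Replicates of the inbred lens agreed about as closely for these genes as for listed genes in general. The ratio of the highest to the lowest library was under 1.2 in 50 of 64 members, against 67.8% of listed genes. The median coefficient of variation was 6.43%, against 7.21% of all listed genes and 6.97% of those at or above the lowest member. By role class it ran from 3.40% for the K and U hnRNPs to 11.2% for the Sm core. The 4 most even of the members at 10 RPKM or more were Prpf6, Hnrnpk, Snrpn and Sf3b1, with ratios from 1.01 to 1.05. The 4 least even were Snrpf (22.7, 15.6 and 20.7 RPKM, ratio 1.45), Prpf8 (1.43), Snrpg (1.30) and Sf3a3 (1.26).

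Replicate 1 was the highest library in 38 of the 64 members (59.4%), but in 29.6% of all listed genes, and replicate 2 was the lowest in 34 members (53.1%), but in 31.8% of listed genes. The lead of replicate 1 was not particular to the splicing genes named here. Replicate 1 was the highest in 64.4% of proteasome genes, 87.4% of ribosomal protein genes, 50% of the other splicing genes and 37.3% of translation factors. Replicate 2 was the lowest in 47.9% of the other splicing genes and 42.5% of ribosomal protein genes, but in 27.1% of translation factors and 22.2% of proteasome genes. In the Sm core replicate 1 was the highest in 7 of 8 genes and in the U1 and U2 specific genes in 4 of 4. Exon length moved with this pattern. The 6 members with exons under 1000 bases in all, 5 of them Sm genes, were highest in replicate 1 in 6 of 6 cases, with a median of 1.26 times replicate 2, and 71.5% of the 298 listed genes of that length were highest in replicate 1, with a median of 1.10 times. Among the 20 members of 5000 bases or more, 9 were highest in replicate 1 (45.0%), with a median ratio of 1.05, against 11.4% and 0.94 for listed genes of that length. The part of exon length, RNA quality or the library in the levels of the Sm genes was not tested. In the authors' normalized values replicate 1 was the highest in 48 members, against 40.6% of listed genes, and replicate 2 the lowest in 18, against 25.7%.

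**Figure D2:**
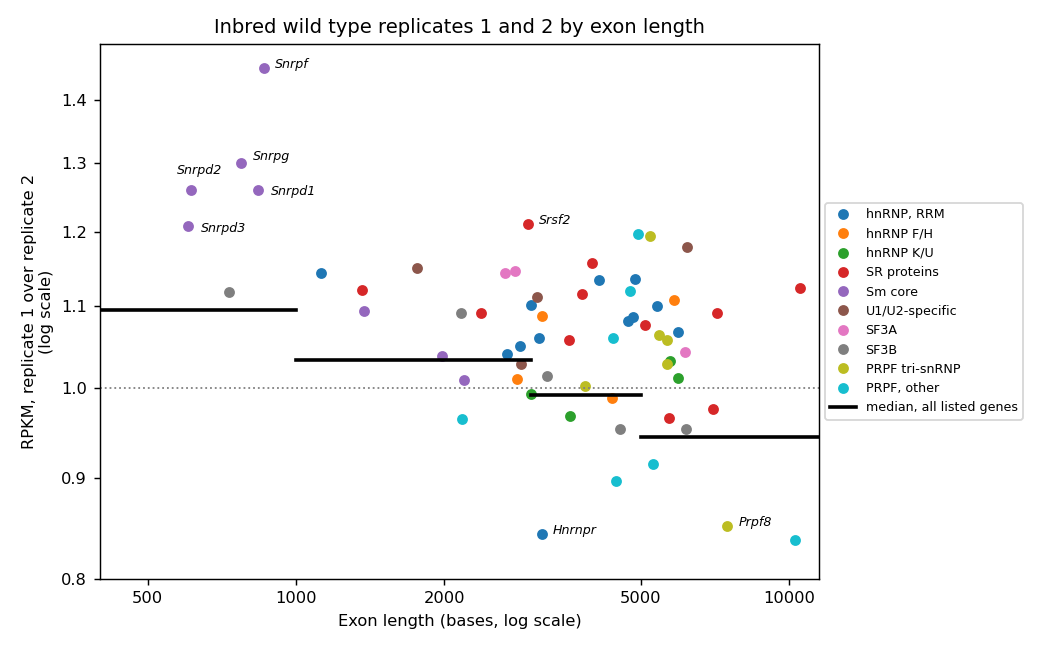
Ratio of RPKM in replicate 1 to replicate 2 of the inbred wild type against exon length in bases, both on log axes; points are the 64 genes coloured by role and black bars are the medians of all listed genes in 4 length classes. The short Sm genes sit highest, led by Snrpf, and Prpf8 and Hnrnpr are among those higher in replicate 2.

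The deposited tables carry a second measure, the authors' normalized expression value, and for several members it was far lower than their reads would give. Across all listed genes this value tracked the number of reads, so it was divided by the reads recovered from RPKM and set against the median listed gene as 100%. Of the 64 members 43 lay between 80% and 110%. Hnrnpa1 lay at 9.05%, Hnrnpf at 14.6% and Hnrnpa3 at 16.8%, followed by Srsf2 at 22.5%, Sf3b4 at 26.0% and Srsf4 at 34.5%. Hnrnpab, Snrpg, Snrpf, Hnrnpk, Srsf3 and Prpf31 lay between 42.6% and 49.7%. These 12 were 18.8% of the members, and 7.15% of all listed genes lay under 50%. The share was 10.2% for translation factors, 11.1% for proteasome genes and 78.2% for ribosomal protein genes. Of the 6 highest genes of the other splicing list, U2af1 lay at 18.3% and the rest between 82.6% and 92.5%. The first place of U2af1 there therefore holds for RPKM only.

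The members with low values per read were mostly those with copies elsewhere in the transcript set. Of the 64, 46 shared at least 1 coding word of 31 bases with a transcript of another GENCODE gene, on either strand, and 37 shared one with a pseudogene. Among the 24 members that shared under 5% of their coding words, the value per read ran from 84.6% to 109%. Among the 18 that shared 50% or more it ran from 9.05% to 81.3%, with a median of 50.6%, and 9 of them were under 50%. Hnrnpa1 shared 85.2% of its coding words, with 26 pseudogenes, Hnrnpa3 97.7%, with 47, and Hnrnpf 97.7%, with 7. Across the 64 genes, which come from the same 3 libraries and are not independent replicates, the sharing and the value per read had Pearson's r = -0.76 and Spearman's rho = -0.68.

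On coding words the match was not complete in either direction. Srsf10 shared 84.8% of its coding words and had 79.6% of the typical value, and Hnrnph2 shared 71.0% and had 81.3%. Over whole transcripts they shared only 25.0% and 24.8% of words, against 49.3% for Hnrnpa1, 70.6% for Hnrnpf and 92.6% for Hnrnpa3. Snrpg shared 21.95% over its whole transcript and had 43.4% of the typical value, so whole transcripts did not give a complete match either. In the other direction Hnrnpab shared 6.21%, Prpf31 9.82% and Hnrnph3 9.62%, and they had 42.6%, 49.7% and 51.4% of the typical value. None of these 3 shared a coding word with a pseudogene, and neither did Srsf2 (40.9% shared) or Srsf4 (58.5%). The gene that shared the most words was Phykpl for Hnrnpab, Rufy2 for Hnrnph3 and Mfsd11 for Srsf2. How the authors' software treated reads that match several places is not given in the sources used here, so the RPKM of the members with high sharing is uncertain.

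**Figure D3:**
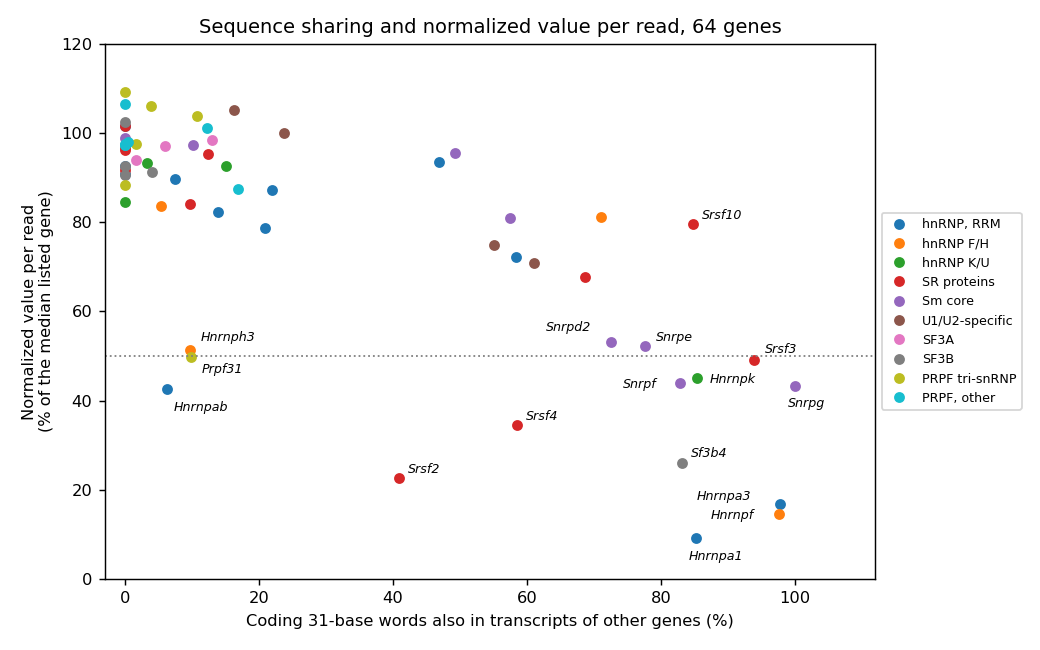
Normalized value per read in the inbred wild type, as a percentage of the median listed gene, against the percentage of coding 31-base words found in transcripts of other genes, for 64 genes coloured by role; the dotted line is 50%. Points with little sharing lie near 100%, and Hnrnpa1, Hnrnpf and Hnrnpa3 lie lowest at high sharing.

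Hnrnpa1 was the only member with values in all 9 libraries, and its RPKM was lower in cKO than in mixed wild type lenses. In cKO it had 218, 217 and 202 RPKM (6713, 6320 and 5916 reads). Mixed wild type libraries gave 254, 291 and 261 RPKM (11059, 14136 and 12946 reads), and inbred ones 253, 221 and 259 RPKM (4747, 4052 and 4121 reads). The 3 cKO libraries lay below all 3 mixed wild type libraries and all 3 inbred ones, while the wild types overlapped.

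Setting cKO against mixed wild type addresses the effect of Cre-driven Sip1 loss between lenses of the same strain mix. Hnrnpa1 averaged 212 ± 8.67 RPKM in cKO and 269 ± 19.7 RPKM in mixed wild type (SD, n = 3 each), 1.27-fold lower in cKO. The log2 fold change on the log2(RPKM + 0.5) scale was -0.34 (SE 0.09, 95% interval -0.53 to -0.15, limma adjusted p = 0.00278, lower in 3 of 3 libraries). Of the 190 genes tested 99.5% were called, 45.3% were called lower in cKO, and in 100% the libraries of the groups were separate. All 190 also differ by at least 2.50-fold, up or down, in the authors' normalized means between these groups, so the call on Hnrnpa1 is not independent evidence. By size of log2 fold change it ranked 2 from the smallest of the 190. In bulk RNA, fewer cells of a type and less RNA per cell cannot be told apart, and neither can Cre, depth and loss of Sip1. The direction depended on scaling, and the median log2 fold change of the 190 genes was 1.37. Centring each library at the median of the 190 genes gave -1.22, and quantile normalization over them reversed it to 0.35 (limma adjusted p = 2.23e-06).

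In the authors' normalized values the same gene differed more. Hnrnpa1 had 389, 365 and 309 in cKO and 724, 1138 and 912 in mixed wild type, a mean of 354 ± 41.2 against 925 ± 207 (SD, n = 3 each), 2.61-fold lower in cKO. The smallest fold among the 190 genes in these values was 2.50, so Hnrnpa1 was close to the margin of the list, ranking 16 from the smallest. Its normalized value per RPKM was 1.79, 1.68 and 1.53 in cKO, against 2.85, 3.91 and 3.50 in mixed wild type, with no overlap (exact permutation test, two-sided p = 0.1, the smallest that 3 against 3 libraries allow). All 190 genes were listed with at least a 2.50-fold difference in normalized means, and the RPKM of Hnrnpa1 differed by 1.27-fold. The missing overlap is therefore not independent evidence. The ratio of cKO to mixed wild type in normalized value per RPKM was 0.487 for Hnrnpa1. Its median was 0.821 over the 187 genes above 0 in both measures in all 6 libraries. Among genes that were under 50% of the typical value per read in the inbred lens, 26 in all with Hnrnpa1, the median was 0.549, and among the other 101 shared genes it was 0.821. The part of reads shared with pseudogenes in the difference between cKO and mixed wild type was not tested.

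**Figure D4:**
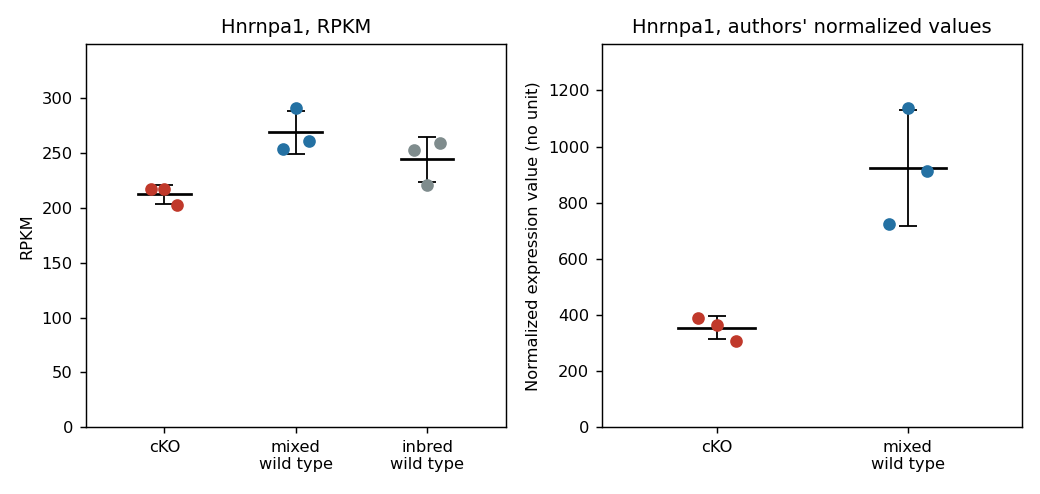
Hnrnpa1 in each library as RPKM (left, cKO, mixed and inbred wild type) and as the authors' normalized expression value (right, cKO and mixed wild type, which share a file type); points are libraries, bars the mean and SD of 3. cKO libraries are 202 to 218 RPKM against 254 to 291 RPKM in mixed wild type, and 309 to 389 against 724 to 1138 in normalized values.

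The comparisons with inbred wild type ask how the wild type backgrounds differ and whether the knockout difference holds against either, and here file type and depth differ too. Both share libraries with the comparison above. Mixed wild type averaged 269 ± 19.7 RPKM of Hnrnpa1 and inbred wild type 244 ± 20.4 RPKM, a log2 fold change of 0.14 (SE 0.10, 95% interval -0.09 to 0.37, limma adjusted p = 0.282). It was not called, where 49.2% of the 128 genes shared by the tables were, and its libraries overlapped, where those of 57% were separate. Its sign in this comparison turned under quantile normalization (-0.18, limma adjusted p = 0.0126) and median centring (-0.0086, limma adjusted p = 0.956).

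Between cKO and inbred wild type Hnrnpa1 averaged 212 ± 8.67 RPKM and 244 ± 20.4 RPKM, 1.15-fold lower in cKO. The log2 fold change was -0.20 (SE 0.09, 95% interval -0.40 to -0.00098, limma adjusted p = 0.0518), above the threshold of 0.05 that 93.8% of the 128 genes passed, 60.9% as lower in cKO. The median log2 fold change of the 128 was -0.57. The libraries did not overlap, as in 93.8% of those genes. It passed without inbred replicate 2, the lowest inbred library (-0.27, limma adjusted p = 0.0227), and under median centring (-0.54), and it reversed under quantile normalization (0.20, limma adjusted p = 0.00522).

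The promoters were compared by letter motifs, without a test. RefSeq promoters (GRCm38.p6, 250 bases before to 50 after the start) were matched for 55 of the 64 genes, giving 75 windows. Motifs were counted on both strands, and their end letters may overlap. The motif CCGGAAG, a site bound by ETS factors, was in 32.0% of the members' windows. It was in 19.5% of 7451 windows of other listed genes and 8.86% of all 32851 windows. CCAAT, bound by NF-Y, was in 48.0%, against 38.3% and 37.4%. The GC box GGGCGG was in 62.7%, against 66.4% and 35.7%, and TATAAA in 9.33%, against 6.31% and 13.6%. Windows with at least 4 CCAAT motifs made up 6.67% of the members' windows and 2.09% of those of other listed genes. These were 5 windows with 4 motifs each, of Hnrnpa1, Hnrnpc, Hnrnpl, Hnrnpr and Hnrnpul1. The windows of Hnrnpa1 (chr15:103240147-103240446, plus strand) and Hnrnpc (chr14:52103972-52104271, minus strand) are shown as the 2 of these genes with the highest RPKM, with the motifs on either strand in capitals.
Hnrnpa1: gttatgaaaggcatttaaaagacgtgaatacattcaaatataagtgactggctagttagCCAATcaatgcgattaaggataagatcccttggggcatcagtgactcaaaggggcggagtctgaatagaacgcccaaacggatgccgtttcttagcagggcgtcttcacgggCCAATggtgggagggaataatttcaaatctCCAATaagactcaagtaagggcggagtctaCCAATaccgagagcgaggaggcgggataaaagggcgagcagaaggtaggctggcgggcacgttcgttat
Hnrnpc: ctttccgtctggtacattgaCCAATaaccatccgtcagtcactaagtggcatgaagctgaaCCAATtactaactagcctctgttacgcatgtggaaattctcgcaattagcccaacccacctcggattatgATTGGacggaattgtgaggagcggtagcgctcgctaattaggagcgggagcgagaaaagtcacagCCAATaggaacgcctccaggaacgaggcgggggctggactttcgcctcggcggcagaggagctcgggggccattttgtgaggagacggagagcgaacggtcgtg
The windows of 1 gene can overlap each other, and a match is a description of the letters only.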

How the data were processed

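The authors deposited, per the file headers, an RPKM value and a normalized expression score with no stated unit per gene in every library. Inbred files add exon lengths. The submitters' processing notes name CASAVA 1.8.2. The sources used here do not give the aligner, annotation or build. Symbols occurring more than once (24 rows) were left out. Depth was recovered from RPKM times exon length (that of the inbred files for every library), whose low values were whole multiples of 1 read (100% of 60 values per library, within 0.1 reads). Groups were compared in R 4.3.3 by limma, version 3.58.1, fitted to log2(RPKM + 0.5), letting the variance prior follow mean level. Genes had to average 1 RPKM or more, and p-values were Benjamini-Hochberg adjusted over all genes tested, with a threshold of 0.05, using the 6 libraries of each comparison. Alternatives were other scalings, filters and pseudocounts, no trend, 1 fit of all 9 libraries, a replicate block, the normalized values and leaving out each library. The limma script was tested on simulated data. Each library pooled lenses, and p-values measure the spread between libraries.

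Hnrnpa1 was named in all 9 libraries, other members per role class (the 4 highest and 2 lowest, or all of 6 or fewer) and by the 4 largest and 4 smallest ratios between libraries. Of the other splicing list, the 6 highest, Rbm24 and any with values in the other lenses were named. Of the members this rule names, 1 is not reported here. Genes shown otherwise (Srsf2, Snrpb, Nova1, Ptbp2, exon lengths, values per read, sequence sharing, promoters) were chosen after their values were seen. Members, role classes and lists were chosen with earlier results of these data known. Sequence sharing used words of 31 bases from the transcript with the longest coding sequence of each member, looked up in all transcripts of other genes. All 64 members matched a GENCODE M21 gene, older symbols through RefSeq synonyms. Python 3.11.15, numpy 2.4.6, pandas 2.3.3 and scipy 1.17.1 were used.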

Additional observations from a re-analysis of the deposited data

How the results depend on the processing

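The fall of Hnrnpa1 in cKO against mixed wild type kept its direction and its call in 15 of 16 alternatives. The exception was quantile normalization (0.35). Without single libraries it ran from -0.38 to -0.28, and in the normalized values it was -1.34. The normalized values called 190 of 190 genes. All 190 were listed with at least a 2.50-fold difference in the means of these values, so this alternative is not independent evidence. Mixed against inbred wild type was not called (0.14), turned sign under quantile normalization (-0.18) and median centring (-0.0086), and ran from 0.07 to 0.18 without single libraries. In cKO against inbred wild type Hnrnpa1 was called lower under median centring (-0.54), with a mean of at least 2 RPKM (-0.20, limma adjusted p = 0.04996), and without inbred replicate 2. It was reversed under quantile normalization (0.20), and ran from -0.27 to -0.15 without single libraries. Both rescalings were computed over the 190 or 128 listed genes alone; the cause of the change was not tested.

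The median over members was 31.1 RPKM over those with a mean of at least 5 RPKM, and 27.8 to 29.0 RPKM without single libraries. Replicate numbers did not pair the libraries, with correlations of same-numbered libraries of -0.15 to -0.10 (cKO and mixed), -0.52 to -0.15 (mixed and inbred) and -0.013 to 0.24 (cKO and inbred). With the replicate block Hnrnpa1 was at -0.34, 0.14 and -0.20 in the 3 comparisons, with no call changed (limma adjusted p = 0.00229, 0.431 and 0.0895), and 189, 47 and 120 genes were called in place of 189, 63 and 120. Precision is limited most for Snrpf, a short gene with 219 reads in its lowest library, and for Prpf4, with 246.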
